A study of Mus musculus with 2 samples.

Results

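The nuclear-encoded genes of the mitochondrial respiratory chain were followed in nuclei of the right atrium of adult mice. They were taken by symbol, as all genes beginning with NDUF, UQCR, ATP5 or COX4 to COX8, together with SDHA, SDHB, SDHC and SDHD. The rule found 32 of the 9330 genes in the count tables, and these 32 held 7435 counts. Each gene was summed over 3 groups of nuclei. Titin-rich nuclei had at least 4 counts of TTN, the giant sarcomere protein titin, making up at least 2% of all their counts. TNNI3/MYL4-rich nuclei lay below that TTN share and had at least 3 counts of TNNI3 (cardiac troponin I) plus MYL4 (atrial light chain) together. All other nuclei formed the rest.

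The respiratory chain lies in the inner mitochondrial membrane, where complexes I to IV pass electrons from NADH and succinate to oxygen and complex V, the ATP synthase, uses the resulting proton gradient to make ATP. Most of its subunits are encoded in the nucleus, and a small set is encoded in mitochondrial DNA. Heart muscle relies on this chain for most of its ATP, and the coactivator PGC-1alpha with the nuclear factors ERR, NRF1 and the ETS factor GABP is known to drive its nuclear genes. Their mRNAs are mostly short and are translated outside the nucleus.

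One library came from Tbx5 G125R/+ mice, which are heterozygous for a glycine-to-arginine change in the T-box transcription factor Tbx5 that was introduced into the mouse genome, and one from control (wild-type) mice. For each library nuclei of 3 right atria were pooled, sorted by DAPI, and 7000 were loaded for 10x Genomics droplet sequencing. The question of the comparison was which atrial cells change in their expression when Tbx5 carries this variant. With 1 pool per genotype there was no replicate, so no difference between genotypes could be tested, and a mouse, a pool and a genotype cannot be told apart. Ratios are therefore given as log2 of G125R over control, scaled to all counts of the nuclei concerned and with 0.5 count added, with exact 95% intervals for the ratio of 2 Poisson counts. Those intervals cover counting error only.

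The tables held 2933 G125R nuclei and 3475 control nuclei, with 45 to 1164 and 55 to 1217 counts per nucleus, and no nucleus identifier occurred in both libraries. Barcodes were not listed, so shared barcodes were not counted. Titin-rich nuclei numbered 404 in the G125R library and 383 in the control library, with a median of 235.5 and 251 counts. TNNI3/MYL4-rich nuclei numbered 123 and 270 (4.19% of G125R nuclei and 7.77% of control nuclei), with a median of 164 and 219.5 counts, and the rest 2406 and 2822, with a median of 116.5 and 128 counts. Apart from TTN, TNNI3 and MYL4, which set the groups, 10 other cardiomyocyte markers summed to 408 counts per 10000 counts in G125R titin-rich nuclei and 448 in control titin-rich nuclei, to 274 and 274 in TNNI3/MYL4-rich nuclei, and to 75.6 and 65.8 in the rest. RYR2, the calcium release channel of cardiomyocytes, stood at 19.9 and 18.7 per 10000 in titin-rich nuclei and at 2.21 and 1.05 in the rest. Macrophage markers had 5 counts and 1 count in titin-rich nuclei and 0 counts in TNNI3/MYL4-rich nuclei of both libraries. With only 17 and 18 counts in the rest, these markers were too sparse to compare the groups. Endothelial markers were at 0.790 and 0.687 per 10000 in titin-rich nuclei. They were at 4.004 and 5.397 in TNNI3/MYL4-rich nuclei, against 10.9 and 10.3 in the rest. Fibroblast markers were at 6.52 and 5.69 per 10000 in titin-rich nuclei, but at 27.1 and 30.0 in TNNI3/MYL4-rich nuclei, against 36.4 and 41.3 in the rest, and what part other cells had in the TNNI3/MYL4-rich nuclei was not tested.

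All genes carry human identifiers although the animals were mice, so each value is the level under that human name and need not be the full level of the mouse gene. The chain was therefore seen in part. Of the 37 nuclear subunits of complex I that were listed, 13 had counts, among them 6 of the 7 core subunits that bind the flavin and the iron-sulfur clusters. Complex II was represented by SDHA and SDHB, complex III by UQCRC1 and UQCRB, complex IV by COX5A and COX6C, and complex V by 7 genes. Another 5 members, NDUFAF1, NDUFAF2, NDUFAF6, NDUFAF7 and COX7A2L, help to assemble complexes or supercomplexes. NDUFV2-AS1, an antisense RNA, had 14 counts, and because the counting is not stated to use strand its reads cannot be told apart from those of NDUFV2. COX6A2, COX7A1 and COX8B, the subunit forms of heart and skeletal muscle, had no counts, nor did the forms of other tissues, COX6A1, COX7A2 and COX8A. Among subunits encoded in mitochondrial DNA, 1 count of MT-CO2 was listed in all nuclei. Of the 32 members, 31 have a mouse gene of that symbol or synonym.

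Counts were concentrated in few genes. ATP5MC3, COX5A, ATP5MG, ATP5MC2 and ATP5MC1 held 69.7% of them, and the most abundant, ATP5MC3, ranked 114 among all genes. At least 20 counts over both libraries were reached by 21 members. The other 11 had 2 to 14 counts each, 6 of them under 10 counts, and 2 of those, NDUFA12 and NDUFAF1, had 2 counts each in the G125R library and 0 in the control library, where a count of 0 allows up to 3. Of the others, the mitochondrial acyl carrier protein NDUFAB1 had 1 count in the G125R library and 8 in the control library, the accessory subunits NDUFB11 3 and 1 and NDUFB2 6 and 4, and the assembly factors NDUFAF2 4 and 8, NDUFAF6 4 and 6 and NDUFAF7 5 and 8. Levels were compared between nuclei for the same gene and not between genes, because counts were not scaled for transcript length.

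ATP5MC1, ATP5MC2 and ATP5MC3 all encode subunit c, the proton-carrying ring of ATP synthase, whose mature protein is the same for the 3 genes. Their coding sequences were set side by side because reads of one could be counted under another. In mouse the genes are Atp5g1 on chromosome 11, Atp5g2 on chromosome 15 and Atp5g3 on chromosome 2. Over the 225 coding bases of the mature part, ATP5MC1 was identical to ATP5MC2 at 84.9% and to ATP5MC3 at 80%, and ATP5MC2 to ATP5MC3 at 78.7%. The first 90 of these bases (GENCODE M21 on GRCm38, 5′ to 3′, coding strand) are shown, and capitals mark the 22 positions at which the 3 genes differ.
ATP5MC1: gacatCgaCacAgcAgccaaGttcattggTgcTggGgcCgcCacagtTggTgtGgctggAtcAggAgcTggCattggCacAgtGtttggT
ATP5MC2: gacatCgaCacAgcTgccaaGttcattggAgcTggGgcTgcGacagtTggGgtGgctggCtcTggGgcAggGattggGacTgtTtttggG
ATP5MC3: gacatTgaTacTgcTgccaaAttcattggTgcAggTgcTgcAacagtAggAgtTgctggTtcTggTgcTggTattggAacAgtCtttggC
The differing positions were spread along the window. In whole mouse transcripts the longest identical stretch was 21 bases between ATP5MC1 and ATP5MC2, 11 between ATP5MC1 and ATP5MC3, and 8 between ATP5MC2 and ATP5MC3. How the authors assigned mouse reads to human symbols is not given in the sources used here, so the 3 counts are kept apart below but are uncertain as to their split.

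Promoters of 24 members (250 bases before to 50 after the start, RefSeq, GRCm38.p6) were searched on both strands for the letters AAGGTCA, which nuclear receptors of the ERR family bind, CCGGAAG, bound by ETS factors such as GABP, and TGCGCATGC, bound by NRF1. The ERR letters were in 3 member promoters (12.5%) and in 4.72% of all 32851 promoters, the ETS letters in 6 (25.0%) and 8.86%, and the NRF1 letters in 3 (12.5%) and 1.52%. ATP5MG held all 3 motifs, and UQCRC1 held NRF1 letters on both strands in an overlap. NDUFS3 held ETS letters once on each strand and is not shown. The promoters of ATP5MG and UQCRC1 are shown because they held more than 1 match and because the genes differed in which group of nuclei had their highest level, as described below. ATP5MG encodes subunit g of the ATP synthase, and UQCRC1 a core subunit of complex III. Both lie on mouse chromosome 9, ATP5MG (Atp5l) at chr9:44920693-44920992 on the minus strand and UQCRC1 (Uqcrc1) at chr9:108936398-108936697 on the plus strand. Capitals mark the motif letters or their reverse complement.
ATP5MG: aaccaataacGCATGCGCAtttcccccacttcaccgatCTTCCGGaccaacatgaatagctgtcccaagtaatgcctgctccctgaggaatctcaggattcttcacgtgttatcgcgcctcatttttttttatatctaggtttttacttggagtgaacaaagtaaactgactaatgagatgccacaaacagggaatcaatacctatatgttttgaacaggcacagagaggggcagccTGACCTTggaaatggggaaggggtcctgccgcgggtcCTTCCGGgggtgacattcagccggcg
UQCRC1: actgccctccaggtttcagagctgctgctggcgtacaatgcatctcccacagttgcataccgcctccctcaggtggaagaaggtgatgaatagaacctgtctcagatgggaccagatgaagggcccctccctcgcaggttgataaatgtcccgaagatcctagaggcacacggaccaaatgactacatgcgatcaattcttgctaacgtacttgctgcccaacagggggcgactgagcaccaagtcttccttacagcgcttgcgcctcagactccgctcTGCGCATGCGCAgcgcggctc
A match of letters is a description and no binding was measured.

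Respiratory chain genes were far more abundant in TNNI3/MYL4-rich nuclei than elsewhere, in both genotypes. All members together made up 195 counts per 10000 in G125R and 191 in control TNNI3/MYL4-rich nuclei, 73.4 and 84.9 in titin-rich nuclei, and 61.7 and 57.3 in the rest. TNNI3/MYL4-rich over titin-rich nuclei gave a log2 ratio of 1.41 (95% interval 1.24 to 1.58) in the G125R library and 1.17 (1.04 to 1.29) in the control library. Over the rest, the ratio was 1.66 (1.51 to 1.81) and 1.74 (1.64 to 1.83). Titin-rich nuclei were much nearer to the rest, at 0.25 (0.13 to 0.37) in the G125R library and 0.57 (0.45 to 0.68) in the control library. The order of the groups was the same in both libraries and the intervals of TNNI3/MYL4-rich and titin-rich nuclei over the rest did not overlap.

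Single members were counted as higher or lower between groups of nuclei where they passed 2-fold in both libraries, among genes with at least 10 counts in each library over both groups. In TNNI3/MYL4-rich over rest nuclei 13 of 18 members were higher, against a background of 7.11% of 3265 genes, and 0 were lower (background 10.3%). These were ATP5F1A, ATP5F1C, ATP5MC1, ATP5MC2, ATP5MC3, ATP5MG, COX5A, COX7A2L, NDUFB7, NDUFB9, NDUFS3, NDUFS8 and SDHB. Of them COX7A2L, NDUFB9 and NDUFS3 rested on 3, 3 and 2 counts in G125R TNNI3/MYL4-rich nuclei. Their intervals in the G125R library included 0, as did that of NDUFB9 in the control library. The median log2 ratio was 1.49 for members and -0.39 for all genes tested. In TNNI3/MYL4-rich over titin-rich nuclei 7 of 15 were higher (background 13.7% of 1727 genes) and 0 lower (background 13.4%), with medians of 1.31 and -0.20. The higher ones were ATP5F1A, ATP5F1C, ATP5MC3, ATP5MG, COX5A, NDUFB7 and NDUFS8. For ATP5F1C the interval in the G125R library included 0 (-0.34 to 2.37). In titin-rich over rest nuclei 5 of 20 were higher (background 8.96% of 3537 genes) and 0 lower (background 18.8%), with medians of 0.40 and -0.41. The higher ones were ATP5F1B, NDUFB9, NDUFS1, NDUFV1 and UQCRC1. The interval of NDUFS1 included 0 in both libraries, and those of NDUFV1 and UQCRC1 did so in the control library. When groups were scaled by the median of gene ratios in place of total counts, all 6 of these between-group ratios of summed members shifted up by 0.30 to 0.55, since the median gene with at least 100 counts lay below 0 by that much.

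**Figure D1:**
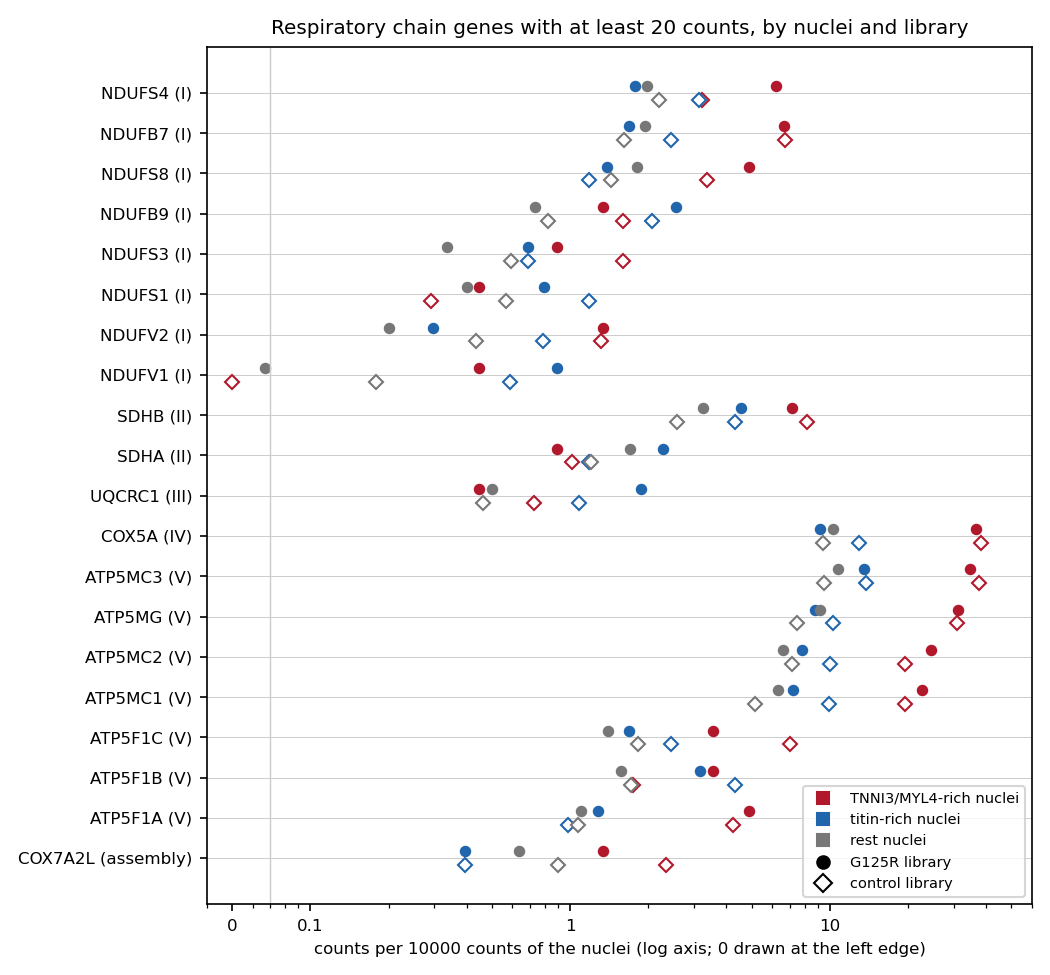
Levels of 20 members with at least 20 counts, as counts per 10000 counts of the nuclei on a log axis, with 0 drawn at the left edge. Colors mark TNNI3/MYL4-rich, titin-rich and rest nuclei, filled circles the G125R library and open diamonds the control library, and the complex stands in parentheses. COX5A and the subunit c and g genes stand far to the right in TNNI3/MYL4-rich nuclei of both libraries, whereas NDUFB9, NDUFS1, NDUFV1, SDHA and UQCRC1 do not.

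Complex V showed the pattern in its membrane part. ATP5MG was at 31.1 per 10000 in G125R and 30.9 in control TNNI3/MYL4-rich nuclei, at 8.79 and 10.3 in titin-rich nuclei, and at 9.13 and 7.49 in the rest. ATP5MC3 was at 34.7 and 37.3, 13.5 and 13.7, and 10.7 and 9.49 in the same nuclei, G125R before control each time. ATP5MC1 (22.7 and 19.5, 7.21 and 9.92, 6.32 and 5.16) and ATP5MC2 (24.5 and 19.4, 7.80 and 10.0, 6.62 and 7.13) had the same order of groups. In both libraries these 4 genes thus had their highest level in TNNI3/MYL4-rich nuclei. Differences between titin-rich and rest nuclei were smaller, up to a log2 ratio of 0.95 (0.58 to 1.30) for ATP5MC1 in the control library.

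The catalytic head of complex V was less uniform. ATP5F1A, the alpha subunit, was at 4.89 and 4.23 per 10000 in TNNI3/MYL4-rich nuclei, 1.28 and 0.982 in titin-rich nuclei and 1.10 and 1.08 in the rest. ATP5F1C, the gamma subunit that forms the central stalk, was at 3.56 and 7.0, 1.68 and 2.45, and 1.40 and 1.82. ATP5F1B, the catalytic beta subunit, differed from both. It was at 3.56 and 1.75 in TNNI3/MYL4-rich nuclei, from 8 and 12 counts, at 3.16 and 4.32 in titin-rich nuclei and at 1.57 and 1.72 in the rest. Its ratio of TNNI3/MYL4-rich over titin-rich nuclei was 0.24 (-1.16 to 1.32) in the G125R library and -1.26 (-2.36 to -0.36) in the control library. That of ATP5F1A was 1.94 and 2.06. Titin-rich over rest, ATP5F1B gave 1.02 (0.31 to 1.69) and 1.34 (0.75 to 1.90).

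Complex IV was carried almost wholly by COX5A, a subunit of cytochrome c oxidase on the matrix side. It was at 36.5 per 10000 in G125R and 38.2 in control TNNI3/MYL4-rich nuclei, at 9.18 and 13 in titin-rich nuclei, and at 10.3 and 9.39 in the rest. COX5A was thus about level between titin-rich and rest nuclei of the G125R library (log2 ratio -0.16, -0.51 to 0.18) and higher in titin-rich nuclei of the control library (0.47, 0.17 to 0.76). COX6C had 1 count and 3 counts in all nuclei of the G125R and the control library.

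Members of complexes I to III fell on both sides. SDHB, the iron-sulfur subunit of succinate dehydrogenase, was at 7.12 and 8.17 per 10000 in TNNI3/MYL4-rich nuclei, 4.54 and 4.32 in titin-rich nuclei and 3.24 and 2.59 in the rest. SDHA, the flavoprotein of the same enzyme, had its lowest levels in TNNI3/MYL4-rich nuclei, 0.890 and 1.02 from 2 and 7 counts, against 2.27 and 1.18 in titin-rich nuclei and 1.71 and 1.21 in the rest. The pair of subunits therefore differed in order, although the few SDHA counts leave wide intervals (-4.48 to 0.66 and -1.79 to 1.26 for TNNI3/MYL4-rich over titin-rich nuclei). UQCRC1 was at 0.445 and 0.729 in TNNI3/MYL4-rich nuclei, from 1 and 5 counts, at 1.88 and 1.08 in titin-rich nuclei and at 0.502 and 0.462 in the rest. Over the rest it was higher in titin-rich nuclei, with 1.89 (0.85 to 2.98) in the G125R library and 1.25 (-0.002 to 2.39) in the control library. UQCRB had 2 counts in each library.

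In complex I the small accessory subunit NDUFB7 was at 6.67 and 6.71 per 10000 in TNNI3/MYL4-rich nuclei, 1.68 and 2.45 in titin-rich nuclei and 1.94 and 1.62 in the rest. NDUFS8, a core iron-sulfur subunit, was at 4.89 and 3.36, 1.38 and 1.18, and 1.81 and 1.44. These 2 followed the pattern of COX5A and ATP5MG. NDUFB9, an accessory subunit of the membrane arm, did not, with 1.33 and 1.60 in TNNI3/MYL4-rich nuclei, 2.57 and 2.06 in titin-rich nuclei and 0.736 and 0.821 in the rest. NDUFV1, the core subunit that binds NADH and the flavin, had 9 and 6 counts in titin-rich nuclei (0.889 and 0.589 per 10000), against 1 and 0 in TNNI3/MYL4-rich nuclei and 2 and 7 in the rest (0.0669 and 0.180 per 10000). NDUFS1, the largest core subunit of complex I, had 8 and 12 counts in titin-rich nuclei (0.790 and 1.18 per 10000), 1 and 2 in TNNI3/MYL4-rich nuclei and 12 and 22 in the rest (0.401 and 0.564 per 10000). NDUFS4, an accessory subunit needed for stable complex I, was at 6.23 and 3.21 in TNNI3/MYL4-rich nuclei, at 1.78 and 3.14 in titin-rich nuclei and at 1.97 and 2.21 in the rest, so that it followed COX5A in the G125R library but not in the control library. Over all nuclei the core subunits NDUFS3 and NDUFV2 had 19 and 12 counts in the G125R library and 41 and 34 in the control library. NDUFS3 was at 0.890 and 1.60 per 10000 in TNNI3/MYL4-rich nuclei, from 2 and 11 counts, against 0.334 and 0.590 in the rest. COX7A2L, the supercomplex factor, was at 1.33 and 2.33 per 10000 in TNNI3/MYL4-rich nuclei, from 3 and 16 counts. It was at 0.395 and 0.393 in titin-rich nuclei and at 0.635 and 0.898 in the rest.

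The contrast between TNNI3/MYL4-rich and titin-rich nuclei was larger for genes with a short coding sequence, for members as for other genes. Across the 15 members with enough counts Spearman's rho between this ratio and the coding length of the mouse gene was -0.51 in the G125R library and -0.34 in the control library, and across 1630 of all 1727 genes it was -0.33 and -0.31. With the span of the gene in the genome in place of coding length it was -0.25 and -0.11 for the members and -0.33 and -0.33 for 1649 genes. Genes are not independent replicates, and the points of one library share its nuclei and depth. For coding lengths under 600 bases the median ratio was 1.74 and 1.21 for 8 members and 1.43 and 1.39 for all 132 genes. From 600 to under 1000 bases it was 1.13 and 1.48 for 3 members and 0.78 and 0.72 for all 182 genes, and from 1000 to under 2000 bases -0.41 and -0.33 for 4 members and -0.15 and -0.23 for all 518 genes. At 2000 bases or more there was no member and 798 genes with a median of -0.45 and -0.46. Set beside genes of their own length, the shortest members thus stood a little above the median in the G125R library and a little below it in the control library. ATP5F1A, of 1659 coding bases, stood apart from its length class at 1.94 and 2.06, and NDUFB9, of 537 coding bases, at -0.75 and -0.33. What part transcript length had in the contrast was not tested.

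**Figure D2:**
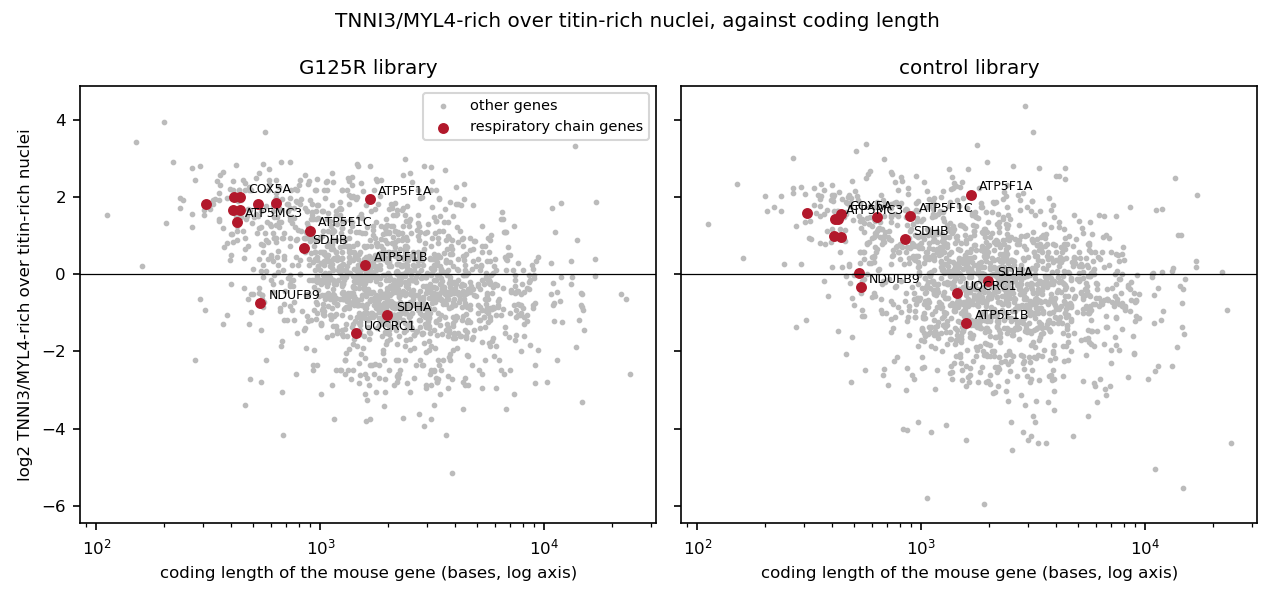
Log2 ratio of TNNI3/MYL4-rich over titin-rich nuclei for single genes against the coding length of the mouse gene in bases on a log axis, G125R library left and control library right. Red points are respiratory chain genes and gray points other genes. Of the 8 members under 600 coding bases all but NDUFB9 lie above 0 in both libraries, NDUFS4 only just in the control library (0.04), and SDHA, UQCRC1 and NDUFB9 lie below 0 in both.

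Other transcripts were not uniform in this contrast. CRYAB, the small heat shock protein alphaB-crystallin, was at 104 and 106 per 10000 in TNNI3/MYL4-rich nuclei, 36.8 and 37.2 in titin-rich nuclei and 23.4 and 25.0 in the rest. Of the same list of muscle transcripts, ACTC1, cardiac alpha-actin, was at 78.3 and 91.6 in TNNI3/MYL4-rich nuclei and 37.5 and 42.8 in titin-rich nuclei, whereas TPM1, alpha-tropomyosin, was at 58.7 and 58.5 against 77.7 and 92.8 and TNNC1, cardiac troponin C, at 1.33 and 2.48 against 10.1 and 17.6. SLC25A4, which exchanges ADP for ATP across the inner membrane, was at 214 and 188 in TNNI3/MYL4-rich nuclei, 117 and 115 in titin-rich nuclei and 54.3 and 43.7 in the rest. CYCS, cytochrome c, the carrier between complexes III and IV, was at 16.9 and 15.2, 4.84 and 7.85, and 4.18 and 4.49. PPARGC1A, which encodes PGC-1alpha, ran the other way, at 6.67 and 2.63 in TNNI3/MYL4-rich nuclei, 25.0 and 21.8 in titin-rich nuclei and 2.74 and 1.41 in the rest. MALAT1, a nuclear RNA, was at 32.9 and 22.3 in TNNI3/MYL4-rich nuclei, against 90.9 and 86.2 in titin-rich nuclei and 53.3 and 48.9 in the rest. Per count of CRYAB there were 1.88 and 1.80 member counts in TNNI3/MYL4-rich nuclei, 1.99 and 2.28 in titin-rich nuclei and 2.63 and 2.29 in the rest, and per count of PPARGC1A 29.3 and 72.7, 2.94 and 3.90, and 22.5 and 40.6. The ratio to CRYAB thus varied far less over the groups than the ratio to PPARGC1A. In the same order of nuclei the ratio to CYCS was 11.6 and 12.6, 15.2 and 10.8, and 14.8 and 12.8. That to TPM1 was 3.33 and 3.26, 0.944 and 0.915, and 3.11 and 3.09, so a steady ratio did not hold for every muscle transcript. The part that free RNA or mRNA from outside the nucleus had in these levels was not tested.

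The same link with TNNI3 and MYL4 appeared inside the titin-rich nuclei. Those with 0 counts of TNNI3 plus MYL4 had 62.8 member counts per 10000 (95% Poisson interval 53.2 to 73.7, 106 nuclei) in the G125R library and 66.9 (56.5 to 78.5, 96 nuclei) in the control library. With 1 to 2 counts the values were 70.4 (63.7 to 77.6, 228 nuclei) and 69.8 (62.7 to 77.3, 198 nuclei), and with 3 or more counts 94.3 (81.4 to 109, 70 nuclei) and 128 (115 to 142, 89 nuclei). CRYAB went with it, at 30.8 and 25.6 per 10000 in the first of these sets, 30.2 and 26.7 in the middle set and 62.7 and 66.2 in the last, while PPARGC1A was at 19.4 to 27.7 throughout. Nuclei with more TNNI3 plus MYL4 were also deeper, with medians of 216 and 227.5 counts in the first set, 236.5 and 253.5 in the middle set and 256.5 and 286 in the last. The genotypes lay apart in the last set alone, where the intervals did not overlap.

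**Figure D3:**
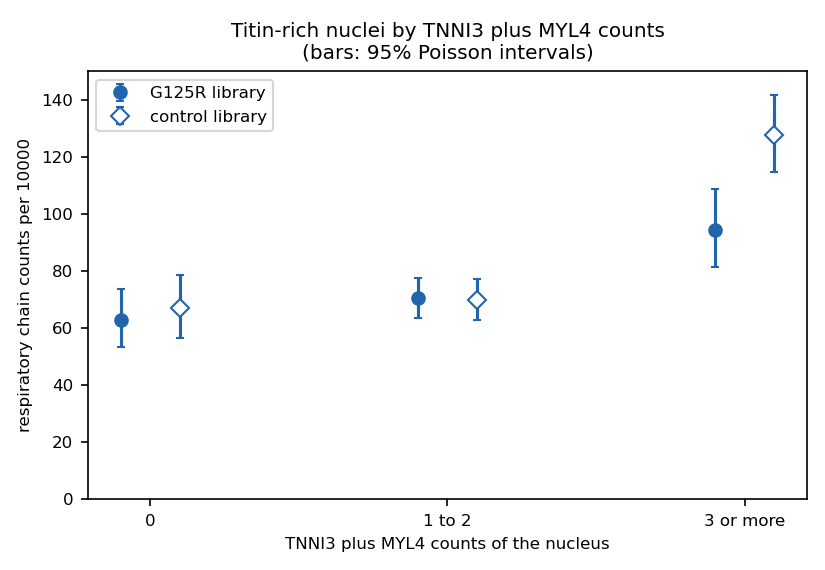
Respiratory chain counts per 10000 counts in titin-rich nuclei, split by their counts of TNNI3 plus MYL4, with filled circles for the G125R library, open diamonds for the control library and bars for 95% Poisson intervals. Levels lie between 62.8 and 70.4 with 0 to 2 counts, and reach 94.3 in G125R and 128 in control nuclei with 3 or more.

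Between genotypes the members were slightly lower in titin-rich nuclei of G125R mice and close to equal in TNNI3/MYL4-rich nuclei. In titin-rich nuclei 743 counts in the G125R library stood against 865 in the control library (73.4 and 84.9 per 10000), a log2 ratio of -0.21 (-0.35 to -0.07). In TNNI3/MYL4-rich nuclei the ratio was 0.03 (-0.13 to 0.19). In the rest it was 0.11 (0.02 to 0.19), and that small excess lay in the shallow nuclei. Rest nuclei with under 100 counts, 836 and 751 in number, had 95.3 and 78.1 per 10000 (0.29, 0.11 to 0.46), whereas rest nuclei with 100 counts or more had 52.6 and 53.5 (-0.03, -0.13 to 0.08), so that the direction turned. In titin-rich nuclei with 100 counts or more the ratio remained -0.22.

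The genotype ratio in titin-rich nuclei was also taken by their TNNI3 plus MYL4 counts. Titin-rich nuclei with 0 to 2 counts of TNNI3 plus MYL4 gave a genotype ratio of -0.02 (-0.19 to 0.16). Those with 3 or more gave -0.43 (-0.70 to -0.18). They made up 17.3% of titin-rich nuclei in the G125R library and 23.2% in the control library. The intervals of these sets just overlap, and the difference between the sets was not tested. The list of muscle transcripts that includes TNNI3, MYL4 and CRYAB also had a lower sum in titin-rich nuclei of the G125R library, with 2336 counts against 2689 (-0.19, -0.28 to -0.11). Within that list TNNI3 (571 against 598 counts, -0.06) and CRYAB (373 against 379, -0.01) were about level. TPM1 (787 against 945, -0.26), TNNC1 (102 against 179, -0.80), MYL4 (89 against 120, -0.42) and ACTC1 (-0.19, -0.39 to 0.01) lay lower, and CKM (0.05) did not. The list's part in the members' ratio was not tested.

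Among the members, the 5 most abundant were lower as a sum, and the sum of the others was near 0. ATP5MC3, COX5A, ATP5MG, ATP5MC2 and ATP5MC1 together gave -0.29 (-0.47 to -0.11), and the other 27 members -0.06 (-0.30 to 0.19). These intervals overlap, and the difference between the sums was not tested. Of the others, 11 had at least 20 counts, with 6 above 0 and 5 below. Those below included ATP5F1B (-0.44, -1.16 to 0.24), ATP5F1C (-0.53, -1.53 to 0.40) and NDUFB7 (-0.53, -1.53 to 0.40). COX5A had 93 counts in the G125R library against 132 in the control library, a ratio of -0.49 (-0.90 to -0.10), and ATP5MC1 73 against 101, a ratio of -0.46 (-0.91 to -0.01). Both intervals stayed below 0. ATP5MC2 had 79 against 102 counts (-0.36, -0.80 to 0.08), ATP5MG 89 against 105 (-0.23, -0.65 to 0.19) and ATP5MC3 137 against 140 (-0.02, -0.37 to 0.33). By complex the ratio was -0.25 (-0.44 to -0.07) for complex V, -0.52 (-0.92 to -0.13) for complex IV, -0.22 (-0.59 to 0.16) for complex I, 0.31 (-0.22 to 0.84) for complex II and 0.84 (-0.26 to 2.08) for complex III. The interval of complex V reached above 0 with a threshold of 6 TTN counts and 3% (-0.41 to 0.04) and in nuclei thinned to 80 counts (-0.63 to 0.05). Complexes II and III, which rest on SDHA, SDHB and UQCRC1, thus pointed the other way, with intervals that include 0.

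Past 1.5-fold, the members were few. A gene entered with 20 or more counts in the nuclei concerned, taking both libraries together. In titin-rich nuclei 2 of 16 members were higher in G125R (background 10.6% of 1570 genes) and 1 was lower (background 12.4%). The higher ones were SDHA, with 23 counts against 12 (0.92, -0.12 to 2.09), and UQCRC1, with 19 against 11 (0.77, -0.35 to 2.01). The lower one was NDUFS4, with 18 against 32 (-0.80, -1.74 to 0.05). In TNNI3/MYL4-rich nuclei 2 of 12 were higher (background 14.5% of 806 genes), ATP5F1B with 8 counts against 12 (1.05, -0.47 to 2.44) and NDUFS4 with 14 against 22 (0.97, -0.12 to 1.99), and 1 was lower (background 16.1%), ATP5F1C with 8 against 48 (-0.90, -2.27 to 0.12). In the rest 0 of 19 were higher (background 6.45% of 3489 genes) and 2 were lower (background 10.2%), NDUFS3 with 10 against 23 (-0.78, -2.05 to 0.31) and NDUFV2 with 6 against 17 (-1.05, -2.75 to 0.29). All of these intervals include 0, and the shares were near the background. ATP5MG in the rest, 273 counts against 292 (0.29, 0.04 to 0.53), was the one member there with an interval above 0. NDUFS4 ran in opposite directions in titin-rich and TNNI3/MYL4-rich nuclei, and the difference between them was not tested. The median ratio of members was -0.29 in titin-rich nuclei, 0.12 in TNNI3/MYL4-rich nuclei and 0.04 in the rest, and that of all genes tested 0.01, 0.01 and -0.04.

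**Figure D4:**
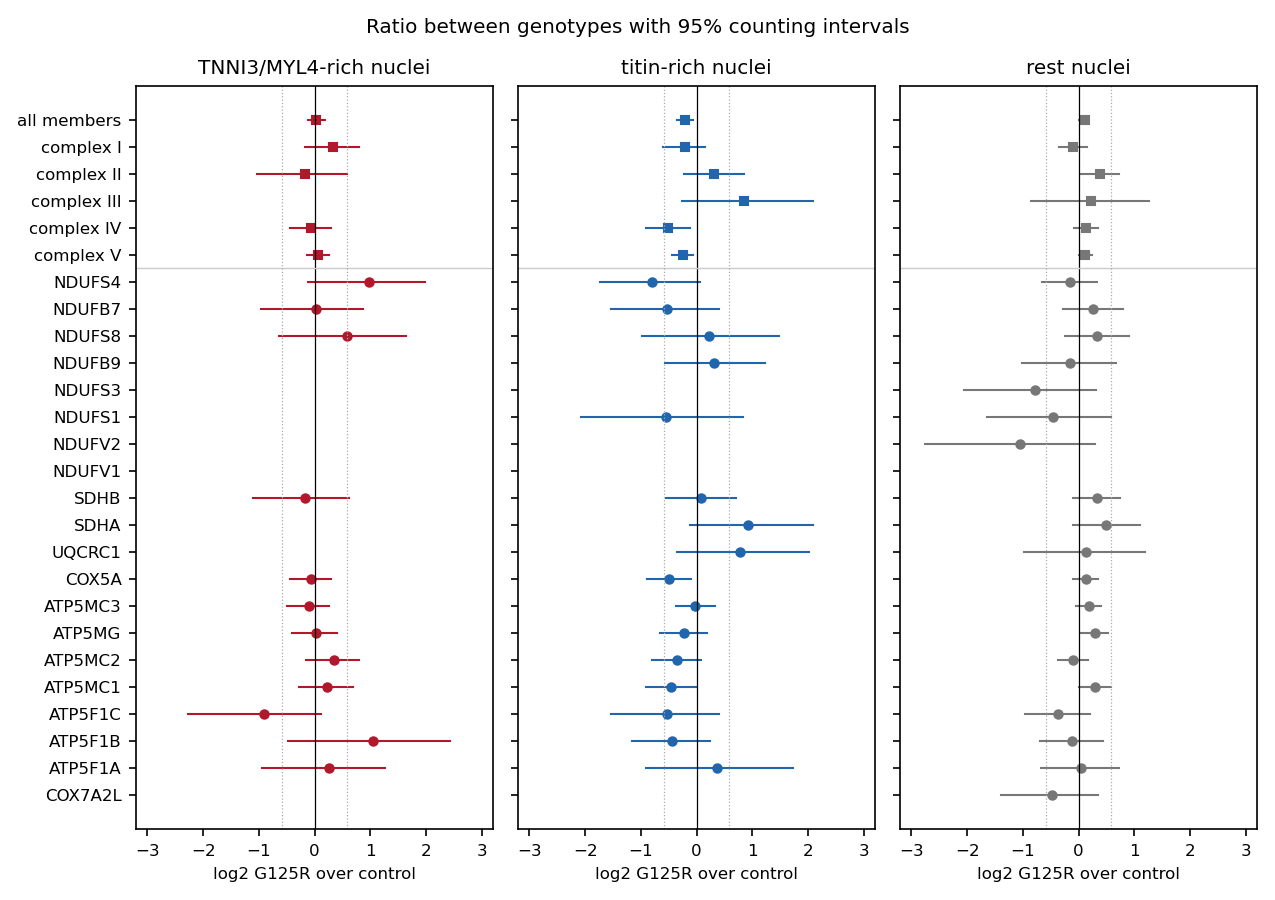
Log2 ratio of G125R over control for all members, complexes (squares) and members (circles) with at least 20 counts in the nuclei shown, with 95% counting intervals and dotted lines at 1.5-fold. Panels show TNNI3/MYL4-rich, titin-rich and rest nuclei. In titin-rich nuclei complexes IV and V lie below 0 with their intervals, while the sum of all members in TNNI3/MYL4-rich nuclei lies at 0.03.

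Summed over all nuclei the members stood at 71.6 per 10000 in the G125R library and 78.7 in the control library. Without the TNNI3/MYL4-rich nuclei, which were more frequent in the control library, the levels were 64.6 and 63.0, a ratio of 0.04 (-0.04 to 0.11). In whole libraries, fewer nuclei of a group and less RNA per nucleus cannot be told apart.

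Around the chain, other genes differed between genotypes in their own ways. SLC25A4 was at 117 per 10000 in G125R and 115 in control titin-rich nuclei (0.03, -0.09 to 0.15). CYCS had 49 counts against 80 there (-0.69, -1.24 to -0.17). It was the 1 of 3 electron carriers and partners with at least 20 counts that passed 1.5-fold lower (background 12.4% of 1570 genes). None passed 1.5-fold higher (background 10.6%), and 3 genes are too few to set against these shares. Genes of the tricarboxylic acid cycle, which feeds the chain with NADH and succinate, summed to 81 counts against 117 in titin-rich nuclei (-0.52, -0.95 to -0.10). Of the regulators of mitochondrial biogenesis, 1 of 6 (GABPA) passed 1.5-fold higher in titin-rich nuclei and 0 lower, against a background of 10.6% higher. There the log2 ratio was -0.11 for PPARGC1B and 0.01 for ESRRB. ESRRA, the nuclear receptor ERRalpha, was at 16.1 and 11.4 per 10000 (0.50, 0.15 to 0.86) and PPARGC1A at 25.0 and 21.8 (0.20, -0.07 to 0.46). In TNNI3/MYL4-rich nuclei 2 of 2 were higher (background 14.5%), and 2 genes are too few to set against that share. These were PPARGC1A, with 15 counts against 18 (1.35, 0.25 to 2.42), and ESRRA, with 25 against 31 (1.30, 0.48 to 2.11). In the rest 4 of 6 were higher (background 6.45%) and 0 lower. TTN and RYR2 were higher in the rest too, at 18.6 and 11.5 per 10000 for TTN (0.69, 0.51 to 0.87), and the part of cardiomyocyte RNA in the regulators' ratio was not tested. TNNC1 had 102 against 179 counts in titin-rich nuclei (-0.80, -1.17 to -0.44).

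Within the rest the members were higher in nuclei with 1 to 3 TTN counts than in nuclei without TTN, TNNI3 and MYL4. Rest nuclei with 1 to 3 TTN counts had 94.9 (G125R) and 103 (control) per 10000, while those with no TTN, TNNI3 or MYL4 count had 48.3 and 43.8. Rest nuclei with fibroblast markers had 40.7 and 42.2, from 201 and 316 nuclei, and those with endothelial markers 67.1 (47.5 to 92.2, 41 nuclei) and 82.3 (60.9 to 109, 37 nuclei). Muscle transcripts did not follow this difference throughout. CRYAB was at 15.9 and 16.8 per 10000 with endothelial markers, against 15.0 and 18.8 with fibroblast markers. With endothelial markers TNNI3 was at 31.8 and 16.8. TNNI3, which fibroblasts should lack, was at 22.8 and 16.5 per 10000 in the nuclei with fibroblast markers. Whether these counts came from free RNA, from doublets or from cardiomyocytes with stray fibroblast counts was not tested, nor was their part in the respiratory chain counts.

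Per nucleus the members were sparse. As counted, at least 1 member count was found in 87.8% of G125R and 89.3% of control TNNI3/MYL4-rich nuclei, 77.7% and 79.6% of titin-rich nuclei, and 46.3% and 47.4% of rest nuclei. In TNNI3/MYL4-rich nuclei 16.3% and 25.9% held 7 or more. After each nucleus was thinned to 80 counts, which left out 25 and 19 shallower TNNI3/MYL4-rich nuclei, 6 and 2 titin-rich nuclei and 428 and 344 rest nuclei, the shares with a member were 74.5% (exact binomial 95% interval 64.7% to 82.8%) and 71.3% (65.3% to 76.8%) in TNNI3/MYL4-rich nuclei, 42.0% (37.1% to 47.0%) and 47.2% (42.1% to 52.4%) in titin-rich nuclei, and 32.9% (30.8% to 35.0%) and 32.4% (30.6% to 34.3%) in the rest. At equal depth the groups kept their order, and the intervals of the genotypes overlapped in each. In rest nuclei with fibroblast markers, at a median of 138 and 147.5 counts, 40.3% and 49.4% held a member count unthinned.

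**Figure D5:**
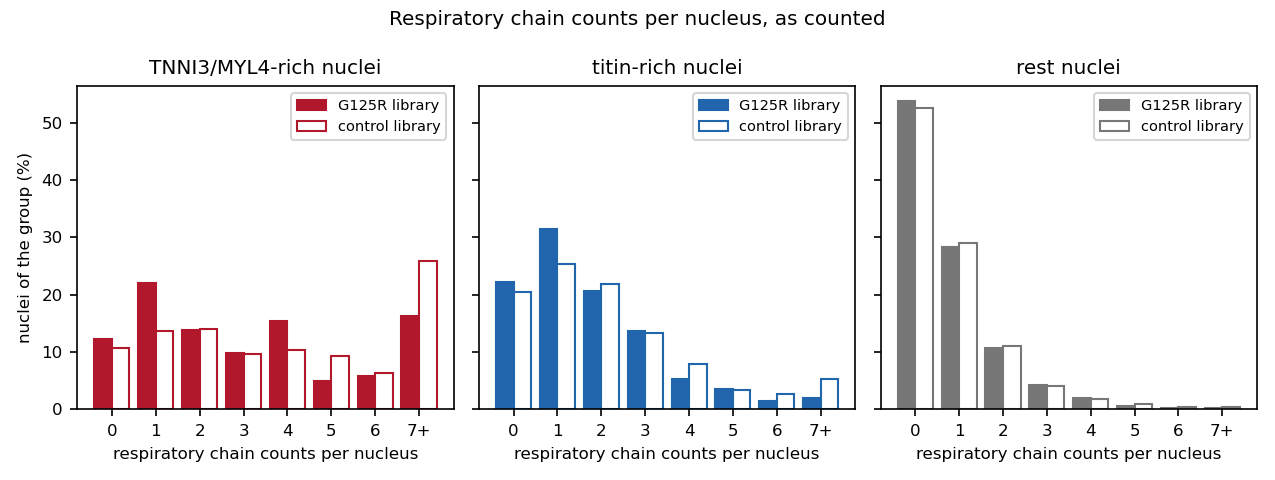
Share of nuclei in percent with 0 to 6 or 7 and more respiratory chain counts, without thinning, in TNNI3/MYL4-rich, titin-rich and rest nuclei, with filled bars for the G125R library and open bars for the control library. Rest nuclei mostly hold 0 or 1 member count, and the class of 7 or more is fullest in TNNI3/MYL4-rich nuclei, at 16.3% and 25.9%.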

How the data were processed

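The authors deposited counts per nucleus and gene for each library, without normalization and without zeros. Per their methods nuclei were kept from 1000 reads, a unit other than these counts. The submitters' processing notes name mm10, although all genes carry human identifiers. For the aligner and the counting tool, names and settings were not given in the sources used here. Tables were assigned to the samples by the genotype in their names. The deposited table of the authors' own p-values and fold changes by cluster was not used, nor were their cluster labels, and doublets were not treated.

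Counts were summed per gene, group of nuclei and library, and scaled to 10000 counts of the same nuclei (Python 3.11.15, numpy 2.4.6, pandas 2.3.3, scipy 1.17.1, matplotlib 3.10.9). Ratios had 0.5 count added. Their exact 95% intervals were run on counts simulated from the same Poisson model that they assume. That simulation held no spread between nuclei or pools, so it cannot show how the intervals perform on these data. With 1 library per genotype no test was made. Nuclei with a TTN share of 2% but under 4 TTN counts (14 G125R and 7 control nuclei with at least 3 TNNI3 plus MYL4 counts) stayed in the rest. Members and gene lists were chosen with earlier results of these data known. Every member with at least 20 counts was described except 1 that is not reported here, the others were named where they had 10 counts or fewer or bore on a result, and up to 10 genes that are no members were to be named. More than 10 such genes were named in the end, and the others were chosen after their values were seen. Splits of the rest and of titin-rich nuclei, the split of nuclei at 100 counts, coding length and the ratio of TNNI3/MYL4-rich over titin-rich nuclei were added after seeing the data. Alternatives covered scaling, thresholds of the groups, depth, thinning, the members included and count minimums.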

Additional observations from a re-analysis of the deposited data

Results flagged for a closer look

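The genotype ratio had opposite signs in different groups of nuclei. The log2 ratio of G125R over control for all members was -0.21 in titin-rich nuclei and 0.11 in rest nuclei, with 1 library per genotype. For complex V alone it was -0.25 in titin-rich nuclei and 0.12 in rest nuclei. The difference between the groups was not tested. In rest nuclei with at least 100 counts the ratios were -0.03 and -0.04.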

How the results depend on the processing

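Of 231 recomputed values 189 were ratios, and 14 of these changed sign. Of the 14, 2 had a main interval apart from 0, those of all members and complex V in the rest. The others had intervals that included 0 from the start. They were 3 ratios for all members, 1 for complex II, 2 for complex III, 1 for complex IV and 2 for complex V in TNNI3/MYL4-rich nuclei, and 1 for complex III and 2 for complex IV in the rest. No paired analysis was possible because each genotype had 1 library, and for the same reason no library could be left out. In rest nuclei with at least 100 counts the genotype ratio turned to -0.025 for all members and -0.043 for complex V. The ratio in titin-rich nuclei lay between -0.28 and -0.16 under all alternatives, and its interval reached above 0 (-0.33 to 0.01) with a threshold of 6 TTN counts and 3%. For complex II in TNNI3/MYL4-rich nuclei thinning turned the ratio from -0.17 to 0.59. Scaling by the median of ratios gave, for G125R and control, 0.63 and 1.0 (titin-rich over rest), 2.09 and 2.21 (TNNI3/MYL4-rich over rest) and 1.96 and 1.47 (TNNI3/MYL4-rich over titin-rich). The stricter TTN threshold gave 0.44 in control for titin-rich over rest. At least 5 TNNI3 plus MYL4 counts gave, in control, 0.43 for titin-rich and 1.84 for TNNI3/MYL4-rich over rest, and 1.62 and 1.41 for TNNI3/MYL4-rich over titin-rich. With at least 100 counts per nucleus the G125R ratios over rest were 0.46 (titin-rich) and 1.86 (TNNI3/MYL4-rich), and thinning gave 0.40 and 0.74 for titin-rich over rest. Without a count minimum 8 members were at least 1.5-fold higher and 4 lower in titin-rich nuclei, 6 and 7 in TNNI3/MYL4-rich nuclei and 5 and 5 in the rest. At 10 counts 2 and 3 members were lower in titin-rich and TNNI3/MYL4-rich nuclei, and at 50 counts 0 were higher in either and 0 lower in the rest. Thinned to 60 counts the share of nuclei with a member was 63.5% and 64.0% (TNNI3/MYL4-rich), 40.6% (titin-rich, control) and 27.0% and 27.0% (rest), against 87.8% and 89.3%, 77.7% and 79.6%, and 46.3% and 47.4% unthinned in the same order of nuclei. Depth limits single members most, since 11 of 32 had under 20 counts.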
